A study of Bos taurus with 24 samples.

Results

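Monocyte-derived macrophages (MDMs) of 3 cows with a high nitric oxide response were compared, after 18 hours of culture, between wells exposed to E. coli and unexposed wells. The libraries were chosen by their labels: high responder, 18 hours, and either control or exposed. They were 6 of the 24 mRNA libraries of the series, 3 from control wells and 3 from exposed wells, and the control and the exposed library of a cow shared a number (pairs 91, 93 and 94). All cows were lactating Holstein females. Their adherent blood mononuclear cells had grown for 6 days with 5 ng/ml recombinant bovine GM-CSF, in control and exposed wells alike, before E. coli inactivated with paraformaldehyde was added at a multiplicity of infection of 5. The other libraries came from high responders at 3 hours and from low responders at both time points, 6 libraries each. Per the study's methods, cows had been divided into high and low responders by the nitric oxide that their MDMs made with E. coli in vitro, the MDMs of each cow were seeded in wells of 2 plates, 1 plate per time point, and the bacteria were inactivated, so that growth of bacteria is not part of the exposure.

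Macrophages sense E. coli mainly through lipopolysaccharide (LPS), which CD14 hands to the receptor TLR4. Adaptor proteins and kinases then switch on NF-kB, AP-1 and interferon regulatory factors, which drive a fast wave of cytokines, chemokines and their own inhibitors. A later wave holds enzymes and proteins that kill or starve bacteria, among them inducible nitric oxide synthase, itaconate-forming ACOD1 and the calgranulins, while metabolism and the cell cycle are reset. GM-CSF, the growth factor of these cultures, keeps macrophages alive and can make some of them divide.

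The 6 libraries held between 9160064 and 13708583 expected counts, with 10.2% to 11.6% of them in the top 10 genes of a library. Of 14 macrophage and myeloid markers, 5 had an identifier here (CD14, CD68, ITGB2, FCER1G and AIF1). Their summed level lay between 5549 and 6391 TPM (transcripts per kilobase, scaled to an equal total per library) in the control wells. In the exposed wells it lay between 4821 and 5385 TPM. The members did not move together: from control to exposed wells, mean TPM went up from 2092 to 2499 in CD68. It went down from 262 to 151 in CD14 and from 1003 to 626 in ITGB2. FCER1G went down from 2236 to 1731 TPM and AIF1 from 249 to 124 TPM. CD79A, the B cell marker with an identifier, lay between 0.35 and 2.24 TPM over the 6 wells, and PRF1, the natural killer cell marker, between 0.54 and 0.76 TPM in controls and between 2.09 and 2.5 TPM in exposed wells. SLC4A1 of red cells was at 0 TPM in all 6 wells and PDGFRB of stromal cells reached 0.07 TPM at most. None of the listed markers of T cells, dendritic cells, neutrophils and platelets was among the symbols used here, and the part of other cells in the results was not tested.

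Exposure changed the expression of a large share of all genes. Of 11759 genes tested, 2011 (17.1%) were called higher in exposed than in control wells and 2651 (22.5%) were called lower. A gene was called, and is said below to have risen or fallen, when its edgeR quasi-likelihood p, adjusted by Benjamini-Hochberg over all genes tested, was below 0.05 and its fold change was above 1.5. Of the 4662 called genes, 4624 moved the same way in all 3 pairs, which a call made on these same pairs favours. The median log2 fold change was 1.1 in called-higher genes, -1.29 in called-lower genes and -0.04 over all genes tested. Changes above 4-fold were found in 465 genes that rose and 667 that fell, and changes above 64-fold in 60 and 27. The genes called higher held between 14.4% and 15.0% of the counts in control wells and between 38.2% and 42.4% in exposed wells, and the genes called lower went from between 24.7% and 25.9% to between 7.92% and 10.3%. The 3 control and the 3 exposed wells did not overlap in 6671 genes (56.7%). In these cultures of whole wells, fewer cells of a type and less RNA per cell cannot be told apart.

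**Figure D1:**
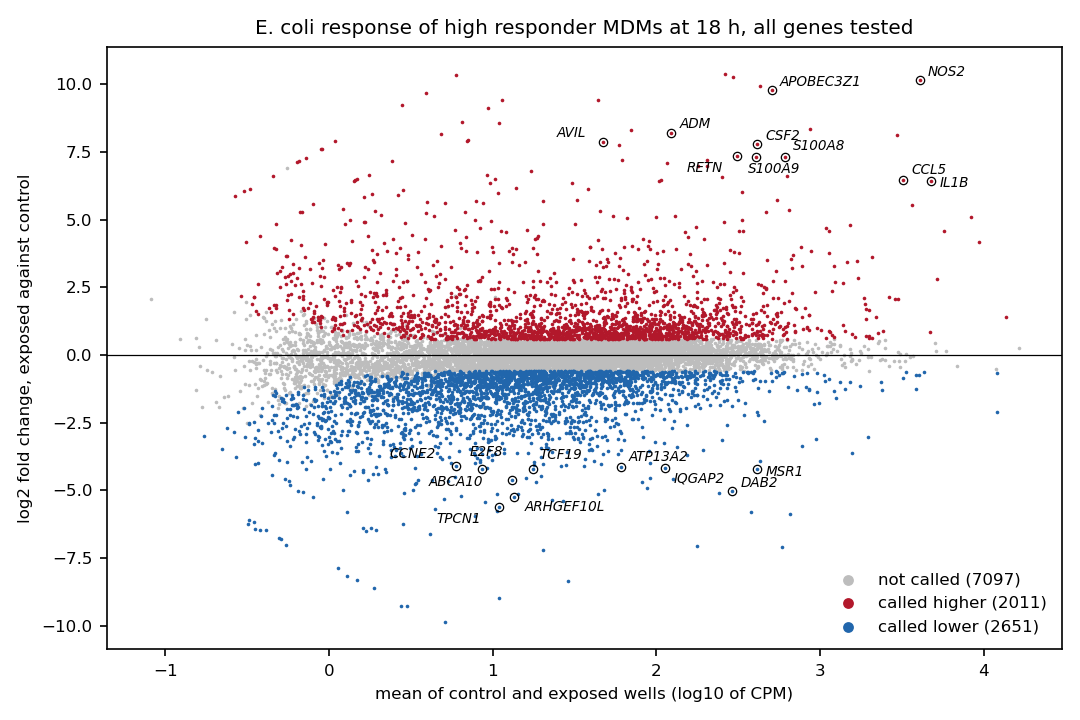
Mean level of each gene tested (log10 of CPM, counts scaled to library size, over the 6 wells) against its log2 fold change, exposed against control wells of high responders at 18 h. Grey points were not called, red points were called higher (2011) and blue points lower (2651), and the 10 named genes of each direction are circled, with NOS2 at 10.15 at the upper right and TPCN1 at -5.6 below.

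Symbols were known for 2270 of the tested genes, and these held more calls than the rest: 738 (32.5%) were called higher and 589 (25.9%) lower, with a median log2 fold change of 0.13. The groups of genes below hold only genes with a symbol, so their counts stand beside these shares. The lists were covered only in part: 8 of 28 cytokine genes, 7 of 36 inflammasome and cell death genes and 47 of 90 cell cycle genes had an identifier. Statements on a list hold for its tested members. Genes named by the size of their change had to show no overlap of wells, so the separation of their wells is not a separate result. CPM below are scaled to the normalized library size, and fold changes are log2 values with the standard error of their edgeR fit. Each fit draws on libraries of both phenotypes and shares the spread across genes, so this error is not the spread over the 3 pairs alone.

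NOS2, the inducible nitric oxide synthase, had the largest increase of any named gene. It stood at 8.55, 6.79 and 5.95 CPM in the control wells and 7015, 7459 and 9887 CPM in the exposed wells of pairs 91, 93 and 94. No exposed well overlapped the control wells, which the naming by size of change required. The log2 fold change was 10.15 ± 0.24 (adjusted p = 9.01e-09, edgeR). The cows were chosen for the nitric oxide that this enzyme makes, so the height of NOS2 is not independent of the choice of the group. APOBEC3Z1, a cytidine deaminase of the family that edits viral DNA, was nearly silent at 0.950, 0.746 and 1.75 CPM in control wells and stood at 931, 724 and 1376 CPM in exposed wells, a change of 9.78 ± 0.40. ADM, the precursor of the vasodilator adrenomedullin, stood at 0.804, 0.821 and 0.770 CPM in the control wells and 317, 282 and 137 CPM in the exposed wells and rose by 8.21 ± 0.26. Both genes were on in every exposed well and close to the limit of detection in every control well. AVIL, which codes for the actin-binding protein advillin, rose by 7.88 ± 0.31, from 0.387 ± 0.0460 CPM to 93.7 ± 25.9 CPM (mean ± SD, n = 3).

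Most tested genes with products that kill bacteria or hold back their metals and growth rose. Of 32 genes listed, 14 were tested. Among these, 12 rose, 1 fell and 1 was not called, with a median log2 fold change of 2.57. The subunits of calprotectin, S100A8 and S100A9, which bind zinc and manganese, moved almost in parallel. S100A8 was measured at 2.7, 10.3 and 10.1 CPM in the control wells and 680.4, 1878 and 1063 CPM in the exposed wells, and S100A9 at 2.92, 6.79 and 4.97 CPM in the control wells and 517, 1284 and 615 CPM in the exposed wells. Pair 93 had the highest exposed level of both genes and pair 91 the lowest, yet the lowest exposed well was far above the highest control. The changes were 7.32 ± 0.29 for S100A8 and 7.32 ± 0.17 for S100A9 (edgeR adjusted p = 8.31e-08 and 9.01e-09). S100A12, another calgranulin, was already at 64.4, 154 and 47.7 CPM in control wells and reached 1056, 2531 and 727 CPM, a change of 4.0 ± 0.11. ACOD1, which makes the antibacterial metabolite itaconate, rose by 4.81 ± 0.15 to 2925 ± 445 CPM. Of the NADPH oxidase, which makes superoxide, the membrane subunit CYBB rose by 2.05 ± 0.16 from a high level (1189 ± 312 CPM), and the cytosolic subunits NCF1 by 2.11 ± 0.16 and NCF4 by 1.39 ± 0.20. SLC11A1, which pumps iron and manganese out of the phagosome, rose by 2.63 ± 0.12.

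The arginine pathway around NOS2 did not move as 1 block. GCH1, the first enzyme in the synthesis of the NOS2 cofactor tetrahydrobiopterin, rose by 2.58 ± 0.12. ARG2, a mitochondrial arginase that uses the same substrate, rose by 2.06 ± 0.09, from 108, 120.0 and 103 CPM to 435, 466 and 480.2 CPM over the 3 pairs. ASS1, which starts the recycling of citrulline to arginine, stood at 59.4, 76.8 and 82.7 CPM in the control wells and 6.68, 9.75 and 2.81 CPM in the exposed wells. The exposed wells were all below the controls, and ASS1 fell by 3.48 ± 0.28 on the log2 scale, the single member of the antimicrobial group that fell.

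All 8 cytokine genes that could be tested changed, 6 upwards and 2 downwards (1 downwards without pair 94), with a median of 2.65. CSF2, which codes for GM-CSF itself, stood at 5.19, 2.39 and 3.29 CPM in the control wells and 1117, 359 and 990.4 CPM in the exposed wells and rose by 7.78 ± 0.25. IL1B, the inflammasome-processed cytokine of fever and neutrophil recruitment, went from 86.1, 96.8 and 149.9 CPM to 10819, 7017 and 10510.3 CPM, a change of 6.43 ± 0.28. Each exposed well was above every control well for both genes, which their naming by size of change required. LIF, a cytokine of the IL-6 family, rose by 4.99 ± 0.36 to 15.2 ± 8.70 CPM, TNFSF9 (4-1BB ligand) by 2.69 ± 0.11 and the IL-1 family member IL36A by 2.60 ± 0.28. IL6 was low and uneven, at 2.34, 1.72 and 1.26 CPM in the control wells and 9.48, 16.9 and 1.79 CPM in the exposed wells. Pair 93 was the highest and the exposed well of pair 94 lay within the range of the controls, so that the groups overlapped, although the fit called the gene higher (2.15 ± 0.42, edgeR adjusted p = 0.00152). CSF1, the other macrophage growth factor of the group, stood at 609, 786 and 340.5 CPM in the control wells and 279, 370.0 and 125 CPM in the exposed wells. It was lower in the exposed well of each pair and fell by 1.22 ± 0.09, but the wells of different pairs overlapped. IL18 fell by 0.72 ± 0.21 from a mean of 16.8 CPM.

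Chemokines that draw neutrophils and monocytes were among the most abundant transcripts of the exposed wells. Of 10 tested genes of chemokines and their receptors, 7 rose, 1 fell and 2 were not called (median 3.01). CXCL8, the main neutrophil chemoattractant, was at 512, 497 and 431 CPM in the control wells and 17219.7, 14833 and 16541 CPM in the exposed wells. The exposed wells were close to each other and all far above the controls, a change of 5.08 ± 0.22. CCL5, which draws T cells and monocytes, stood at 143, 75.3 and 31.8 CPM in the control wells and 7626, 4930.5 and 6467 CPM in the exposed wells and rose by 6.45 ± 0.39. Relative to their level, its pairs differed more in the control wells, where pair 91 was the highest and pair 94 the lowest, than in the exposed wells. CXCL2 rose by 4.58 ± 0.13, CCL4 by 3.61 ± 0.26, CXCL16 by 3.22 ± 0.12 and CCL3 by 2.80 ± 0.25. The counts of CXCL2 were fractional in all 6 libraries, which means that reads were shared with a similar sequence. CCL8, a monocyte chemoattractant, stood apart with 224, 88.0 and 110.2 CPM in the control wells and 26.0, 33.3 and 8.57 CPM in the exposed wells and fell by 2.64 ± 0.48. The receptor CCR1 was abundant and was not called (0.14 ± 0.13), and its counts were fractional in all 6 libraries too.

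The LPS receptor genes TLR4 and CD14 were not called at 18 hours, while most genes of the signalling list were. TLR4 was at 229, 194 and 271 CPM in the control wells and 246, 242 and 299.8 CPM in the exposed wells, and CD14 at 394, 463 and 584 CPM and 306, 403 and 362 CPM. TLR4 had a log2 change of 0.19 (95% interval 0.00 to 0.38). CD14 had one of -0.42 (95% interval -0.66 to -0.17), past the test but below the 1.5-fold limit. In TPM, CD14 went from 220, 245 and 321 in the control wells to 133, 167 and 153 in the exposed wells, with no overlap. Of the 12 tested genes of LPS and Toll-like receptor signalling, 7 rose, 2 fell and 3 were not called, with a median of 1.02. IRAK2, a kinase that sustains the signal, rose by 2.92 ± 0.17, IRAK3, a brake on the same complex, by 1.6 ± 0.11, and NOD2, a sensor of bacterial wall peptides, by 1.55 ± 0.19. TLR2, the receptor of bacterial lipoproteins, rose by 0.89 ± 0.09. MYD88, the shared adaptor of these receptors, fell by 0.96 ± 0.11, and CD180, a relative of TLR4 that restrains it, fell by 1.07 ± 0.23 (not called without the replicate block).

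NF-kB subunits and the genes that feed back on the pathway were still high after 18 hours. Of 12 tested, 11 rose, none fell and 1 was not called (median 1.87). The wells did not overlap in any of the 12, while 56.7% of all genes tested had no overlap. NFKBIZ, a nuclear cofactor of late NF-kB targets, stood at 78.4, 57.4 and 96.9 CPM in the control wells and 923, 611 and 1096 CPM in the exposed wells and rose by 3.49 ± 0.10. TNFAIP3 (A20), which removes ubiquitin from the signalling complex, stood at 37.0, 29.6 and 44.6 CPM in the control wells and 302, 326 and 482 CPM in the exposed wells and rose by 3.31 ± 0.11, and its partner TNIP3 rose by 3.04 ± 0.18. In all 3 genes, each exposed well was several times above the highest control. NFKB2, the precursor of the p52 subunit, rose by 2.41 ± 0.13. DUSP6, a phosphatase of ERK kinases, was not called (-0.57 ± 0.10), but was called lower without pair 91.

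Among 23 transcription factors of macrophages, 15 rose, 3 fell and 5 were not called (median 0.98). IRF1, the factor of interferon gamma and NOS2 induction, stood at 95.9, 81.3 and 94.1 CPM in the control wells and 2070.5, 2079 and 2360.3 CPM in the exposed wells. The 3 pairs were alike in both conditions and did not overlap between them, with a change of 4.59 ± 0.13 (edgeR adjusted p = 1.67e-08). PRDM1 (Blimp-1), a transcriptional repressor, rose by 2.72 ± 0.14, and FOSL1, an AP-1 subunit, by 2.44 ± 0.22. HIF1A, the oxygen-regulated factor of glycolytic genes, rose by 1.48 ± 0.11 to 1260.0 ± 395 CPM. MAF, a factor of resident-like and alternatively activated macrophages, was at 22.0, 19.8 and 60.7 CPM in the control wells and 1.73, 1.72 and 1.92 CPM in the exposed wells. It fell by 4.07 ± 0.33, and no wells overlapped. PPARG, which serves lipid handling, fell by 1.26 ± 0.16, and ETV5 fell by 1.5 ± 0.18. STAT6, the factor of IL-4 signalling, was not called (0.17 ± 0.09).

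Interferon-stimulated genes were raised only in part at 18 hours: 18 of 30 tested rose, 1 fell and 11 were not called, with a median of 0.64. The number that rose was 12 without pair 93, 13 without the replicate block and 11 with edgeR's glmTreat. The wells did not overlap in 15 of the 30, a share below the 56.7% of all genes tested. GBP5, a guanylate-binding protein of the family that coats bacteria inside cells, stood at 4.17, 2.31 and 10.7 CPM in the control wells and 175, 77.5 and 324 CPM in the exposed wells and rose by 5.10 ± 0.16, with fractional counts in 4 libraries. RSAD2 (viperin), an antiviral enzyme, rose by 3.30 ± 0.17 and the RNase ISG20 by 3.24 ± 0.38. The ubiquitin-like ISG15 rose by 2.52 ± 0.18 to 397 ± 213 CPM. Many classic members were near their control level, such as OAS1X at 0.41 ± 0.08, USP18 at 0.16 ± 0.14, PARP9 at 0.22 ± 0.13 and IFI44L at -0.40 ± 0.12, none of them called. SAMHD1, which depletes nucleotides and so limits DNA viruses and retroviruses, stood at 54.8, 69.4 and 44.7 CPM in the control wells and 9.07, 13.9 and 7.8 CPM in the exposed wells and fell by 2.47 ± 0.11.

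Genes of antigen presentation and costimulation moved in 1 direction. Of 18 tested, 15 rose, none fell and 3 were not called, with a median of 1.1. The immune checkpoint ligands led the group: CD274 (PD-L1) stood at 22.4, 13.9 and 26.5 CPM in the control wells and 572, 590.3 and 762 CPM in the exposed wells and rose by 4.97 ± 0.17. PDCD1LG2 (PD-L2) was nearly silent in controls and rose by 5.65 ± 0.37 to 7.76 ± 1.82 CPM. Both ligands were higher in each exposed well than in any control well. The inducible proteasome subunits PSMB10 and PSMB9 rose by 2.35 ± 0.12 and 1.76 ± 0.17, the peptide transporter TAP1 by 1.53 ± 0.11 and the peptide-trimming ERAP1 by 1.61 ± 0.12. B2M, the light chain of class I molecules, rose by 0.85 ± 0.09 from 3347 ± 453 CPM to 6014 ± 579 CPM. In TPM its relative rise was smaller, from 6581 ± 1083 in the control wells to 9217 ± 1045 in the exposed wells. On the class II side, BOLA-DRA rose by 0.76 ± 0.23 and the invariant chain CD74 by 0.87 ± 0.18, while BOLA-DMB was at -0.05 ± 0.19 and the lysosomal protease CTSS at 0.14 ± 0.09, neither called. BOLA genes have similar copies, and the counts of BOLA-DRA and BOLA-DMB were whole in all 6 libraries.

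Of 7 tested inflammasome and cell death genes, 6 rose and 1, the pore-forming BAK1 (-0.39 ± 0.16), was not called (median 1.59). BCL2A1, which keeps activated cells alive, stood at 142, 155 and 166 CPM in the control wells and 1852, 2034 and 2404 CPM in the exposed wells and rose by 3.76 ± 0.11. NAIP, a sensor of bacterial needle proteins and flagellin, rose by 3.06 ± 0.10, NLRP3, the sensor of the main inflammasome, by 2.63 ± 0.11, and CASP4, the receptor of LPS in the cytosol, by 1.59 ± 0.10. In the complement list, 4 of 6 tested genes rose and 1 fell (median 0.97). C1R, the first protease of the classical pathway, stood at 1.83, 2.31 and 2.31 CPM in the control wells and 73.8, 72.9 and 117 CPM in the exposed wells and rose by 5.33 ± 0.24. It was the largest change of the list, and no wells overlapped. C3 rose by 1.82 ± 0.12 and CD55, which protects host cells from complement, by 1.1 ± 0.15. CD59, the other such protector, fell by 2.95 ± 0.50 from a low 2.29 CPM. The integrin chain ITGB2 was not called (-0.32 ± 0.08). In TPM, ITGB2 went from 986, 1076 and 946 in the control wells to 602, 672 and 604 in the exposed wells, with no overlap. Of eicosanoid genes, 2 were tested and both rose: LTB4R, the leukotriene B4 receptor, by 1.89 ± 0.24 and PTGER2, a receptor of prostaglandin E2, by 1.03 ± 0.13 (not called without the replicate block).

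Genes of matrix, proteases and coagulation mostly rose, 12 of 15 tested against 1 that fell (median 1.19). THBD (thrombomodulin), which turns thrombin into an anticoagulant, was at 5.12, 4.25 and 4.48 CPM in the control wells and 77.1, 52.9 and 91.5 CPM in the exposed wells. Every exposed well stood above every control, a change of 3.98 ± 0.22. TGM2, which crosslinks proteins, rose by 3.36 ± 0.17 and SERPINB2, an inhibitor of plasminogen activators, by 3.27 ± 0.12 to 2216 ± 1573 CPM. HAS2, which makes hyaluronan, fell by 3.98 ± 0.25, from 14.7 ± 2.56 CPM to 0.937 ± 0.272 CPM. ADAM8, a surface protease, was not called (-0.32 ± 0.16).

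**Figure D2:**
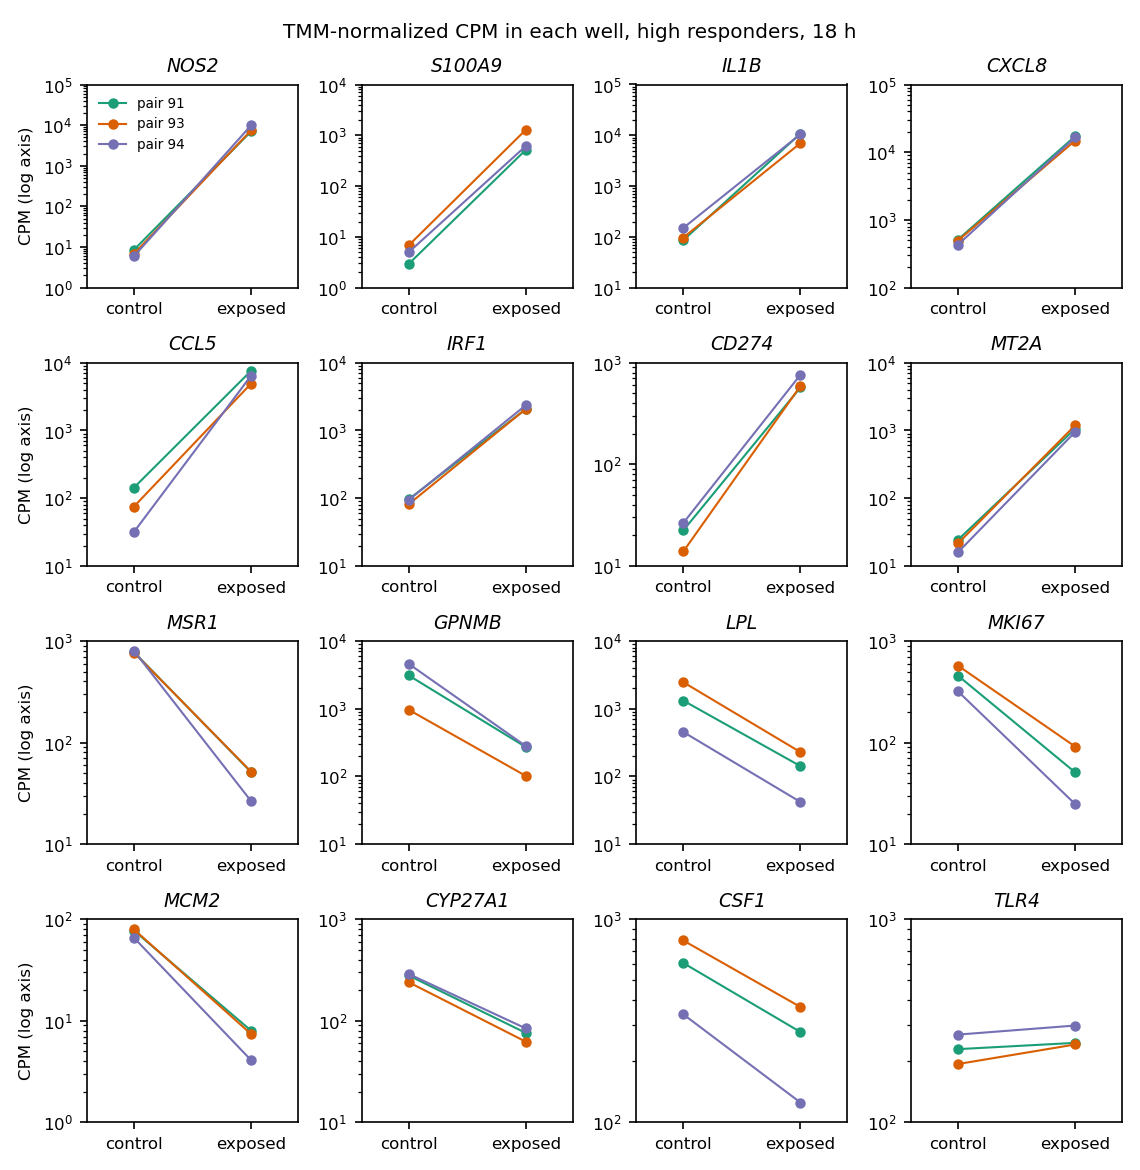
TMM-normalized CPM (log axis, own range in each panel) of 16 genes in the control and the exposed well of each high responder cow at 18 h, with 1 line per pair. NOS2, S100A9, IL1B, CXCL8, CCL5, IRF1, CD274 and MT2A were higher and MSR1, GPNMB, LPL, MKI67, MCM2 and CYP27A1 lower in all 3 exposed wells than in any control well, CSF1 was lower in each pair while its pairs overlapped, and TLR4 hardly moved.

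MSR1, the class A scavenger receptor, was among the most reduced genes. It stood at 778, 769 and 801 CPM in the control wells and 51.1, 51.7 and 26.5 CPM in the exposed wells. The 3 control wells were nearly equal, every exposed well was far below them, and MSR1 fell by 4.22 ± 0.19 (edgeR adjusted p = 1.62e-07). GPNMB, a glycoprotein of lipid-laden macrophages, was one of the more abundant transcripts of control wells, at 3107, 967 and 4608 CPM, and stood at 272, 102 and 281 CPM in exposed wells. It fell by 3.60 ± 0.22, although pair 93 had a lower level than the other pairs in both conditions. LYVE1, the hyaluronan receptor of a tissue-resident subset, had 251 counts over the 3 control wells and 0 over the 3 exposed wells, which makes it at least 75.3-fold lower against a floor of 3 counts over the group. Of 16 tested genes of the scavenger, efferocytosis and alternative activation list, 7 fell, 5 rose and 4 were not called (median -0.38). The bridging ligand GAS6 fell by 2.50 ± 0.17, and so did the protease LGMN (-1.3 ± 0.16) and SCARB2 (-1.0). RETN (resistin) moved against them: it stood at 4.09, 4.18 and 3.01 CPM in the control wells and 656, 676 and 519 CPM in the exposed wells and rose by 7.36 ± 0.26. CD47 and its receptor SIRPA rose by 1.14 ± 0.11 and 0.68 ± 0.10, and the Fc receptor chain FCER1G was not called (-0.02 ± 0.09). In TPM, FCER1G went from 2232, 2080 and 2396 in the control wells to 1634, 1809 and 1750 in the exposed wells, with no overlap.

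The most reduced genes also held a channel, an exchange factor, an endocytic adaptor, transporters and a scaffold. TPCN1, an endolysosomal cation channel, stood at 17.3, 19.6 and 27.2 CPM in the control wells and 0.577, 0.452 and 0.128 CPM in the exposed wells and fell by 5.6 ± 0.30, the largest decrease among the genes named by size of change. ARHGEF10L, an exchange factor that activates small GTPases, fell by 5.23 ± 0.31, and the endocytic adaptor DAB2 fell by 5.02 ± 0.29, from 452, 491 and 743 CPM to 15.3, 17.8 and 17.3 CPM. Each of the 3 genes was lower in every exposed well than in any control well, which their naming by size of change required. The lipid transporter ABCA10 fell by 4.62 ± 0.38, as did the scaffold IQGAP2 (-4.17 ± 0.31) and ATP13A2, a lysosomal polyamine pump (-4.14 ± 0.31). Lysosomal genes as a list did not lean to 1 side, with 4 higher, 5 lower and 5 not called of 14 tested (median -0.11). Beside TPCN1, the amino acid exporter SLC36A1 fell by 1.94 ± 0.18 and the glucuronidase GUSB fell by 0.95 ± 0.09, whereas the channel MCOLN2 rose by 2.33 ± 0.21.

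Genes of the cell cycle and DNA replication fell almost without exception. Of 47 tested, 44 fell, 2 rose and 1 was not called, with a median of -2.51. In all 47 the control and the exposed wells did not overlap, against 56.7% of all genes tested. MKI67, the general marker of dividing cells, stood at 456, 572 and 319 CPM in the control wells and 50.9, 91.4 and 24.8 CPM in the exposed wells. The 3 pairs kept their order, with pair 93 the highest and pair 94 the lowest in both conditions, and MKI67 fell by 3.14 ± 0.19 (edgeR adjusted p = 8.41e-07). The largest decreases were those of E2F8, a factor that shuts the G1/S program, at -4.20 ± 0.25, CCNE2, a cyclin of S phase entry, at -4.10 ± 0.26, and UHRF1, which helps to copy DNA methylation, at -3.91 ± 0.14. The replicative helicase subunits MCM2 (-3.51 ± 0.19), MCM3 (-2.82 ± 0.13), MCM5 (-3.05 ± 0.14) and MCM7 (-2.36 ± 0.14) fell together. Genes of mitosis fell as well, such as TOP2A (-3.54 ± 0.14), CCNB1 (-3.01 ± 0.19) and CDC20 (-3.45 ± 0.14). TCF19, a factor of the same phase that was named by size of change, fell by 4.22 ± 0.17. The genes that rose were those of the kinase inhibitors p21 and p27: CDKN1A stood at 371, 267 and 218 CPM in the control wells and 653, 712 and 437 CPM in the exposed wells and rose by 1.08 ± 0.13, and CDKN1B rose by 0.91 ± 0.12. DNMT1, the maintenance DNA methyltransferase, was not called (-0.56 ± 0.09).

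Lipid genes moved in both directions. LPL, which frees fatty acids from lipoproteins, stood at 1318, 2463 and 453 CPM in the control wells and 142, 229 and 42.0 CPM in the exposed wells. It was lower in the exposed well of each pair, no wells overlapped between the groups, and LPL fell by 3.36 ± 0.10. CYP27A1, which makes 27-hydroxycholesterol, fell by 1.87 ± 0.12, as did the fatty acid carrier FABP5 (-1.84 ± 0.16) and fatty acid synthase, FASN (-1.73 ± 0.14). ABCA1, the cholesterol exporter, rose by 2.43 ± 0.13, the acyl-CoA synthetase ACSL5 by 2.33 ± 0.14 and SOAT1, which stores cholesterol as esters, by 1.02 ± 0.13. Over 11 tested genes of efflux and fatty acid metabolism, 4 rose, 5 fell and 2 were not called (median -0.31), ACSL4 among the last (0.51 ± 0.16). Of 6 tested genes of cholesterol synthesis and uptake, 2 fell and 4 were not called (median 0.28). CYP51A1, which removes a methyl group from lanosterol on the way to cholesterol, fell by 0.59 ± 0.13 (not called without pair 91, without the replicate block, with DESeq2 or its size factors, with glmTreat, or with only the 6 or all 24 libraries in the fit). With DESeq2 or its size factors 1 gene of this list rose and 1 fell.

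In energy metabolism, transporters of glucose and the regulator PFKFB3 rose, while several enzymes of glycolysis and most mitochondrial genes were not called. SLC2A3, a high-affinity glucose transporter, stood at 310.4, 219 and 225 CPM in the control wells and 2956, 2223 and 2855 CPM in the exposed wells and rose by 3.42 ± 0.20. SLC2A1 rose by 1.43 ± 0.11, and PFKFB3, which makes the main activator of glycolysis, by 1.93 ± 0.21. ENO3, the muscle form of enolase, rose by 4.27 ± 0.17 from 8.16 ± 0.715 CPM to 158 ± 16.1 CPM, whereas ENO1, the form of most cells, was not called (0.54 ± 0.09). LDHA rose by 0.67 ± 0.15, and GAPDH (-0.09 ± 0.10), PGK1 (0.32 ± 0.09) and PKM (-0.18 ± 0.09) were not called. PDK4, which closes pyruvate dehydrogenase, fell by 1.98 ± 0.12. Over the 22 genes of glycolysis and hypoxia, ADM included, 11 rose, 4 fell and 7 were not called (median 0.58).

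Of 4 tested genes of the tricarboxylic acid cycle, 1 fell, pyruvate carboxylase, PC (-1.4 ± 0.22), and ACO1 was not called (-0.46 ± 0.09). Of 13 respiratory chain genes, none rose, 4 fell and 9 were not called (median -0.22). UQCR11 (-1.19 ± 0.16), NDUFA13 (-1.13 ± 0.10) and ATP5MC3 (-0.78 ± 0.09) fell most, while ATP5F1A, the most abundant of those not called, was at -0.24 ± 0.08. Of 13 cytosolic ribosomal proteins, none rose, 3 fell and 10 were not called (median -0.19). They were RPS26 (-0.94 ± 0.09, with fractional counts in 5 libraries), RPL13 (-0.83 ± 0.11) and RPS9 (-0.72 ± 0.12, not called with glmTreat), and RPS12 was at 0.29 ± 0.08.

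Most genes of the unfolded protein and amino acid response rose, 15 of 23, while 4 fell and 4 were not called (median 1.0). DDIT4, an inhibitor of mTORC1, rose by 2.83 ± 0.20, the leucine sensor SESN2 by 1.56 ± 0.09, the co-chaperone DNAJB9 by 1.51 ± 0.16, and the amino acid response genes ASNS and ATF4 by 1.51 ± 0.13 and 0.98 ± 0.09. Of the lumenal chaperones and their partners, HSPA5 was not called (-0.06 ± 0.14), and SDF2L1 (-1.33 ± 0.21), CALR (-0.94 ± 0.08) and HSP90B1 (-0.75 ± 0.12) fell. Among genes of oxidative stress, iron and metal handling, 11 of 14 rose and none fell (median 1.33). The metallothionein MT2A, which binds zinc and copper, stood at 24.3, 21.5 and 15.9 CPM in the control wells and 1061, 1191 and 951 CPM in the exposed wells and rose by 5.71 ± 0.24. No wells overlapped. MT1E rose by 4.0 ± 0.23, the zinc importer SLC39A8 by 2.52 ± 0.18, thioredoxin reductase (TXNRD1) by 1.87 ± 0.12 and the peroxidase PRDX5 by 1.58 ± 0.12. Metallothioneins are similar copies of each other, and the counts of MT2A and MT1E were whole in all 6 libraries. The ferritin light chain FTL was not called (0.43 ± 0.08), and its counts were fractional in all 6 libraries.

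Of 9 tested genes of tryptophan and NAD metabolism, 4 rose, 2 fell and 3 were not called (median 0.57). CD38, which breaks down NAD, rose by 3.46 ± 0.19, HAAO of the kynurenine path by 2.49 ± 0.31, and NAMPT, the first enzyme of NAD salvage, by 1.43 ± 0.10. TIPARP, a target of the aryl hydrocarbon receptor, was not called (0.57 ± 0.22). CYP1A1, the classic target of that receptor, was called lower and had 137 counts in the control wells and 1 in the exposed wells. Its control level was 8.92, 0.149 and 0.910 CPM, so that pair 91 carried most of it.

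**Figure D3:**
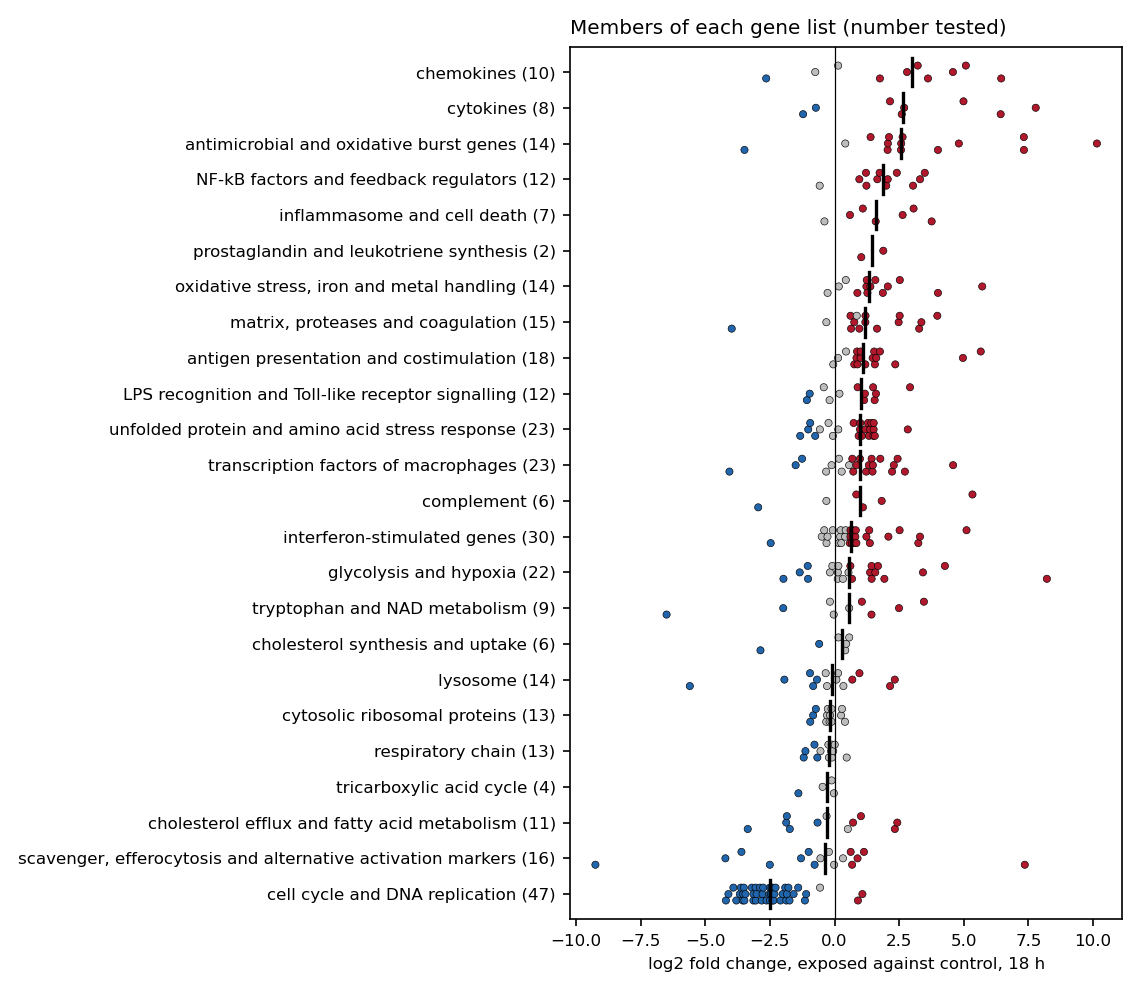
Log2 fold change, exposed against control wells of high responders at 18 h, of each tested member of 24 gene lists. Red, blue and grey points are genes called higher, called lower and not called, and black bars are list medians, which run from 3.01 in chemokines to -2.51 in cell cycle and DNA replication.

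The late response differed in content from the early one. At 3 hours in the same phenotype, measured in other wells of the same cows on another plate, 1768 of 11264 genes (15.7%) were called higher and 1345 (11.9%) lower. Of 11218 genes tested at both time points, 1072 were called higher at both, which was 57.2% of the list of 18 hours and 61.3% of that of 3 hours. For genes called lower, 732 were shared, which was 28.5% of the list of 18 hours and 54.5% of that of 3 hours. A further 66 genes were called higher at 3 hours and lower at 18 hours, and 13 the reverse. In a fit of all 24 libraries that tested the difference itself (effect at 18 hours minus effect at 3 hours), 1255 of 11905 genes (10.5%) had a higher effect at 18 hours and 1891 (15.9%) a lower one (among 2285 genes with a symbol, 329, or 14.4%, and 523, or 22.9%). Without a term per pair (no replicate block), the same test called 614 and 869 genes. The labels do not say which wells of both time points came from 1 cow, so this test treated the pairs of 3 and 18 hours as separate. A pair number that occurs at 3 and at 18 hours need not mark the same cow, since the letters of the library codes differ. Time point and plate cannot be told apart, although each effect was taken within its plate.

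Calgranulins and resistin had a far larger effect at 18 hours than at 3 hours. The effect on S100A8 was 1.47 ± 0.24 at 3 hours, where the control and exposed wells had 11.5 ± 15.9 and 24 ± 25.1 CPM (mean ± SD, n = 3), and the difference of effects, 18 hours minus 3 hours, was 5.98 ± 0.42 (edgeR adjusted p = 1.05e-06). S100A9 followed it with 1.55 ± 0.24 at 3 hours and a difference of 5.87 ± 0.31. S100A12 was at -0.20 ± 0.23 at 3 hours and differed by 4.27 ± 0.28. RETN differed by 4.91 ± 0.39, from 2.55 ± 0.24 at 3 hours. THBD was at -0.79 ± 0.31 at 3 hours and differed by 4.78 ± 0.40, and APOBEC3Z1 differed by 4.71 ± 0.85. ENO3 went from -0.06 to 4.27 (difference 4.40 ± 0.30). NOS2 was already at 8.83 ± 0.28 at 3 hours and had a further gain of 1.39 ± 0.32.

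The other side of the difference held genes of the first wave. CCL8 had an effect of 4.74 ± 0.42 at 3 hours, with 63.7 ± 57.7 CPM in control and 1457 ± 743 CPM in exposed wells, against -2.64 at 18 hours, a difference of -7.34 ± 0.76 (edgeR adjusted p = 1.79e-05). IL6 stood at 94.4 ± 15.5 CPM in the exposed wells of 3 hours, and its effect was lower by -4.19 ± 0.61 at 18 hours as a signed difference. CHAC1, a glutathione-degrading enzyme of the amino acid response, had an effect of 5.62 ± 0.39 at 3 hours and of 1.42 ± 0.31 at 18 hours, a difference of -4.15 ± 0.54. TPCN1 and ATP13A2, genes of the late decrease, had effects of -0.80 ± 0.22 and -0.03 ± 0.24 at 3 hours and differed by -4.73 ± 0.40 and -4.04 ± 0.45.

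The direction of the difference between the time points was not the same in all lists. In 9 of 12 NF-kB genes, 15 of 24 transcription factors and 18 of 30 interferon-stimulated genes, the effect was lower at 18 hours, and it was higher in 1 of them, the transcription factor IRF2 (1.05 ± 0.31, not called without pair 91 or pair 94 of 18 hours or without the replicate block). Without the replicate block it was lower in 5, 7 and 5, and without pair 93 of 18 hours in 9 of the transcription factors. Their medians went from 3.02 to 1.87, from 2.08 to 0.98 and from 1.67 to 0.64. IFIT1 went from 4.85 to 1.34, BIRC3 from 4.03 to 1.65 and the early factor NR4A1 from 5.31 to 2.23. The effect was higher at 18 hours in 7 of 18 antigen presentation genes and 9 of 14 genes of oxidative stress and metals and lower in none (without the replicate block, higher in 4 and 5). PSMB10 went from 0.69 to 2.35, PRDX5 from 0.03 to 1.58 and TXN from 0.09 to 1.23. Cell cycle genes moved almost all one way: the effect was lower at 18 hours in 40 of 47 (31 without the replicate block) and higher in 2 (1 without pair 93 of either time point, none without the replicate block), with a median of -0.50 at 3 hours, when 20 of them were called lower. MKI67 was at 0.21 ± 0.23 at 3 hours. For the scavenger list, 7 of 16 were lower at 18 hours (3 without the replicate block) and 2 higher (1 without pair 93 of 18 hours, pair 94 of 3 hours or the replicate block), with MSR1 at -0.20 ± 0.10 and GPNMB at -0.07 ± 0.10 at 3 hours. Other lists were divided: the effect was higher at 18 hours in 6 and lower in 3 of 14 antimicrobial genes, higher in 2 and lower in 3 of 10 chemokine genes, and higher in 8 and lower in 2 of 22 genes of glycolysis and hypoxia (4 and 3, 2 and 2, and 4 and 1 without the replicate block).

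**Figure D4:**
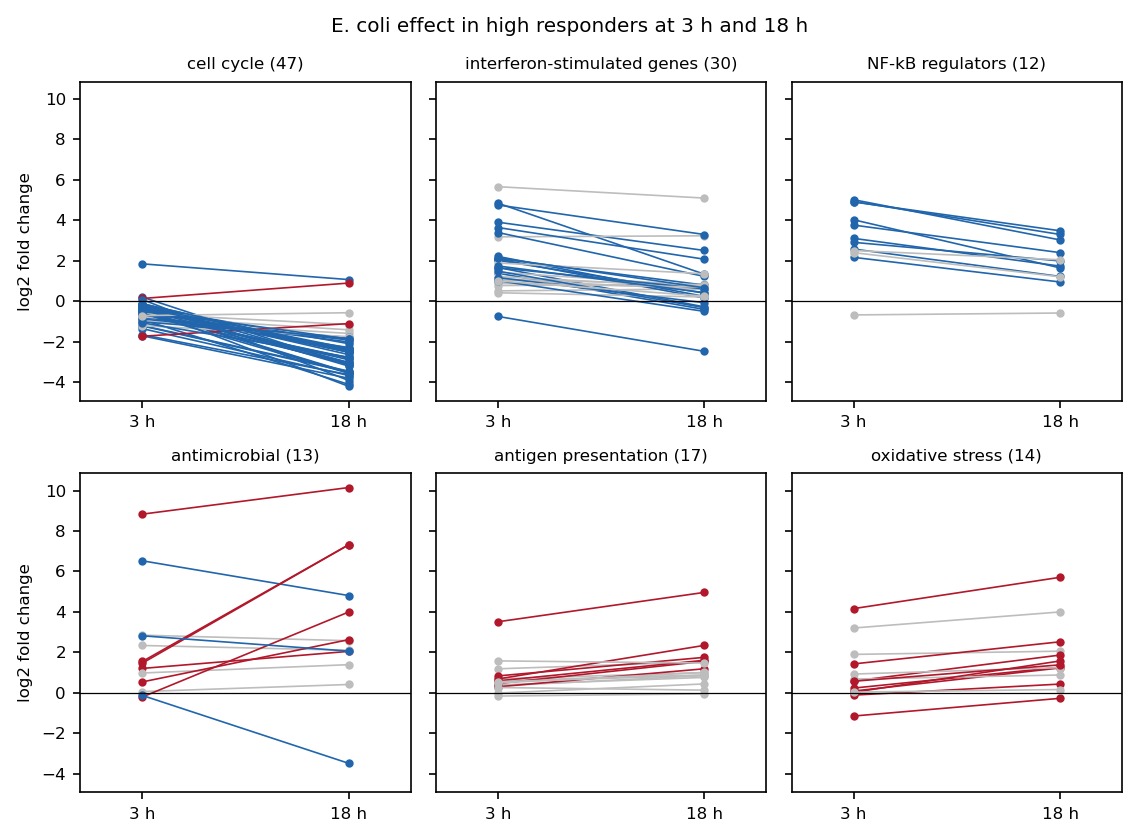
Log2 effect of E. coli in high responders at 3 h and 18 h for the members of 6 gene lists tested at both time points (their number in the panel title), 1 line per gene. Blue lines are genes whose effect was called lower at 18 h than at 3 h, red lines those called higher and grey lines those not called, so cell cycle, interferon-stimulated and NF-kB panels are mostly blue and the panels of antigen presentation and oxidative stress hold only red and grey lines.

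The effect at 18 hours was also set against that in low responders, whose wells were cultured and exposed in the same way. The difference of effects, high minus low, was called in 190 genes, 157 higher (1.34%) and 33 lower (0.281%) of 11759, and without the replicate block in none (0 by edgeR, with 1150 genes at an unadjusted p below 0.05). Without pair 92 of the low responders 30 genes were called, and without their pair 94, 76. The symbols known here come in part from a table sorted by this difference, so no share of the named genes is read. S100A12 and S100A9 had the smallest adjusted p of the named genes. S100A8 had an effect of 7.32 ± 0.29 in high and 4.19 ± 0.25 in low responders, a difference of 3.13 ± 0.34 (edgeR adjusted p = 0.00602). In low responders it reached 525 ± 431 CPM in exposed wells from 25.9 ± 17.6 CPM in controls. S100A9 and S100A12 differed by 3.15 ± 0.21 and 2.23 ± 0.14. CCL5 differed by 2.49 ± 0.45, RETN by 1.76 ± 0.35 and IRF1 by 1.27 ± 0.16, and the decrease of TPCN1 was deeper by -2.56 ± 0.47 as a signed difference. Leaving out single pairs ended the call of CCL5 (pairs 92 and 94 of the low responders), of RETN (each pair of the high responders and the same 2 low responder pairs) and of TPCN1 (pair 93 of the high responders and each low responder pair). NOS2 had an effect of 8.98 ± 0.23 in low responders, and the difference of 1.17 ± 0.26 was not called (edgeR adjusted p = 0.0592).

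On the TPM scale, which is per transcript length and allows levels of different genes to be compared, the ferritin heavy chain FTH1 was the most abundant named transcript in both conditions. It stood at 15937 ± 4228 TPM in control wells, as the second of all genes, and at 32140.5 ± 5379 TPM in exposed wells, as the first, and rose by 1.39 ± 0.12 (its counts were fractional in all 6 libraries). CCL3 went from rank 48 (2804 TPM) to rank 4 (14839 TPM) and CXCL8 from rank 279 (526 TPM) to rank 6 (13838 TPM). IL1B reached 6744 TPM (rank 17) from 101 TPM, and NOS2 2388 TPM (rank 53) from 2.69 TPM. A gene known here only by its identifier, ENSBTAG00000022396, moved from rank 1547 (95.5 TPM) to rank 2 (16994.5 TPM), with fractional counts in 3 of the 6 libraries. ENSBTAG00000009812 went from 1125 to 14996 TPM. In the other direction, ENSBTAG00000020676 went from rank 5 (12581 TPM) to rank 51 (2484 TPM), and ENSBTAG00000005260, the highest of the control wells, from 17699 to 8630.0 TPM.

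A large part of the transcriptome held its level on the scale of normalized CPM. In 3625 genes, the 95% interval of the fold change lay within 1.5-fold in both directions. Among them were CTSS (4852 ± 454 CPM in control and 5324 ± 363 CPM in exposed wells) and LAPTM5, a lysosomal membrane protein of blood cells, with a log2 fold change of -0.03 ± 0.08. In TPM, CTSS went from 4222, 4613 and 4948 in the control wells to 3754, 4092 and 3920 in the exposed wells, with no overlap. Its steadiness thus depends on the normalization, and so does the size of small changes such as that of B2M. Over the called genes, the median absolute log2 fold change was 1.04, 1.04 and 1.20 in pairs 91, 93 and 94. These genes were called from the same pairs, so the closeness of the medians is in part a result of the calling. With 3 wells against 3, the smallest two-sided p of an exact permutation test on 1 gene is 0.1, or 0.25 where wells are exchanged only within pairs, so that all calls rest on the spread that edgeR shares across genes.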

How the data were processed

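Per the study's methods, the authors used Trimmomatic to trim the read pairs of stranded mRNA libraries, STAR to align them to UMD 3.1 of the bovine genome and RSEM to quantify genes. The deposited tables hold expected counts (estimated read pairs, not normalized), TPM, FPKM and effective lengths of 24616 Ensembl genes per library. Totals per library ran from 6297190 to 20936554 expected counts, so precision is lowest in genes with few counts, and intervals and floors cover counting error or the spread of these wells only.

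Expected counts were rounded, normalized by TMM and fitted in R 4.3.3 with edgeR 4.0.16 (filterByExpr, glmQLFit, glmQLFTest). The effect in high responders at 18 h came from the 12 libraries of 18 h, with a term per pair and an effect per phenotype (4 residual degrees of freedom), and its difference from 3 h from all 24 libraries. Calls needed a Benjamini-Hochberg adjusted p below 0.05 over all genes tested and a fold change above 1.5. TPM were used as deposited.

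Pairs follow equal numbers in the library codes within a group, which the labels do not explain in words. Deviations from the group means, over genes, correlated between 0.497 and 0.545 in wells of the same number and between -0.386 and -0.125 otherwise. Chi-square per gene between wells of a group was 20.6 to 54.4, so none were duplicates. No library was left out.

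Symbols came from the study's supplementary lists, of which parts were used, for 2803 genes. One list is sorted by the difference between phenotypes, so genes with a symbol hold more changed genes than the rest. TNF, IL10, IL12B, SOD2, PTGS2, MRC1 and CSF1R were to be named and were not among these symbols, and some list members are not reported here. The group, gene lists and named genes were chosen with earlier results of these data known. Named were the 10 genes per direction with the largest change (a symbol, 10 CPM or more in the higher group, 10 counts or more in the lower, no overlap of wells), up to 3 leading genes, 1 opposite and the most abundant uncalled member of each list, genes set by name, the 5 genes per direction with the largest difference between time points, the most abundant genes and steady abundant genes. Other list members are examples chosen after their values were seen.

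Results were recomputed with size factors of DESeq2 1.42.0, with its test, without a filter or with one at a mean of 50 counts, without the replicate block, at an adjusted p below 0.1, at any fold change, with edgeR's glmTreat, with offsets for effective length, with other sets of libraries, with FPKM for TPM and without each pair in turn. On simulated data with 200 changed genes, the fit of the 18 h effect recovered 190 with 5 false calls among 11759 genes, that of the difference between time points 160 with 6 among 11905, and that between phenotypes 161 with 6 among 11759. The simulated counts had the same spread in every gene and no differences between cows. Far fewer genes were changed in them than the 4662 called in the data, so these rates are not the accuracy of the real fits.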

Additional observations from a re-analysis of the deposited data

Results flagged for a closer look

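The effect of E. coli in high responders differed between 18 h and 3 h in 3146 genes (edgeR, test of the difference itself). Among the named genes, the effect was higher at 18 h by 5.98 (log2) in S100A8, 5.87 in S100A9, 4.91 in RETN, 4.78 in THBD and 4.71 in APOBEC3Z1. The difference was -7.34 in CCL8, -4.73 in TPCN1, -4.19 in IL6, -4.15 in CHAC1 and -4.04 in ATP13A2. All 10 differences were called in each of the 14 alternatives run for them.

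The effect at 18 h differed between high and low responders in 190 genes. The difference, high minus low, was 3.15 in S100A9, 3.13 in S100A8, 2.23 in S100A12 and 1.27 in IRF1, each called in 14 of 15 alternatives, all but the fit without the replicate block. It was 2.49 in CCL5 (called in 11 of 15), -2.56 in TPCN1 (10 of 15) and 1.76 in RETN (9 of 15).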

How the results depend on the processing

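The count of genes changed at 18 h stayed within 1.5 times of 4662 under every alternative run, from 3144 with edgeR's glmTreat to 6913 without a minimum fold change, and between 4284 and 4540 when 1 pair was left out. No called value of a named gene changed its direction. Values of 5 named genes that were not called (CCR1, FCER1G, HSPA5, LAPTM5 and ENSBTAG00000043564) changed sign under 1 or more alternatives. Of 1827 values of 131 named genes under the alternatives, 1793 kept their call, 12 in 5 genes lost it (CYP51A1, CD180, PTGER2, RPS9 and ENSBTAG00000005260) and 22 gained it. Of the gains, TIPARP, ACSL4, ENO1 and DUSP6 were called without pair 91, and ACSL4 and ENO1 also without pair 93. Of 672 counts of list members that rose or fell, 637 stayed within 1.5 times. Without the replicate block, the number of genes that differed between 18 h and 3 h was 1483 in place of 3146, and between 2611 and 3783 when 1 pair was left out. The number that differed between high and low responders was 0 without the replicate block (1150 at an unadjusted p below 0.05), 435 without a filter on low counts, 395 with DESeq2, 448 at an adjusted p below 0.1, 124 with all 24 libraries in 1 fit, and between 30 and 178 when 1 pair was left out. The lowest of these came without pair 92 of the low responders, and 76 without their pair 94. The cause was not tested. As FPKM, FTH1 stood at 25533 in exposed wells in place of 32140.5 TPM. Low counts limit genes that were near 0 in 1 group.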

Other observations

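A few genes were counted in exposed wells and hardly or not at all in control wells. They were looked for after the values were seen. IL17A, a cytokine better known from T cells, had 0 counts over the 3 control wells and 267 over the 3 exposed wells, which makes it at least 98.8-fold higher against a floor of 3 counts over the group. SH2D4A, an adaptor protein, had 0 and 355 counts and was at least 131-fold higher. NXPE4 had 2 and 697 counts, TGM3, a transglutaminase of epithelia, 2 and 404, and ADAMTS5, a protease of cartilage matrix, 2 and 377. Among genes that went the other way, SMAD6, an inhibitor of bone morphogenetic protein signals, had 46 counts in control wells and 1 in exposed wells.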
